A study of Homo sapiens with 6 samples.

Results

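The insulin-like growth factor (IGF) system was examined through its binding proteins and receptors in YCC3 cells, a line from human gastric cancer, that had received siRNA to CTNNB1 or a control siRNA with no target. The genes were chosen by name, with earlier results of these data known. They are the 7 binding proteins IGFBP1 to IGFBP7 and the receptors IGF1R, IGF2R and INSR. Of these 10 genes, 9 had a row of the array with no other gene symbol, out of 18417 genes tested in all. IGFBP6 was the exception: its row also carries a second gene's symbol, so no value is given for it. RNA was taken 48 hours after transfection from 3 samples treated with CTNNB1 siRNA and 3 treated with control siRNA, and each was hybridised to 1 Affymetrix Human Gene 1.0 ST array. All samples are 1 cell line grown in MEM with serum, and the controls were transfected too. An siRNA directs a cell to degrade a matching mRNA, and CTNNB1 encodes beta-catenin, the co-activator of Wnt target genes. The labels call the samples biological replicates but do not say whether they were separate transfections, nor give the siRNA sequences, so off-target effects of CTNNB1 siRNA cannot be told apart from loss of CTNNB1, and p-values measure only the spread between these samples.

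IGF1 and IGF2 are secreted growth factors that act mainly through IGF1R, a receptor tyrosine kinase close in structure to the insulin receptor INSR. IGF2R, the mannose 6-phosphate receptor, carries lysosomal enzymes and removes IGF2 from the cell surface without a kinase of its own. The binding proteins hold IGFs outside the cell, where they prolong their life, keep them from the receptors or release them when cut by proteases, and some also act on cells without IGF.

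Of the 9 measured genes 1 was called as changed, against 4.72% of all genes. IGFBP3 rose 1.60-fold, while the other binding proteins did not pass the test, and the values of IGF1R and IGF2R were lower on each CTNNB1 siRNA array than on every control array without passing it. These 3 of 9 are the members whose groups did not overlap, against 26.0% of all genes, and their promoters are shown for that reason. Each runs from 250 bases before to 50 bases after the annotated start, 5′ to 3′ along the gene, from RefSeq on GRCh38.p14. Capitals mark matches on either strand to the motifs described after them. IGFBP3 lies at chr7:45921223-45921522 on the minus strand, IGF1R at chr15:98648289-98648588 on the plus strand and IGF2R at chr6:159968832-159969131 on the plus strand.
IGFBP3: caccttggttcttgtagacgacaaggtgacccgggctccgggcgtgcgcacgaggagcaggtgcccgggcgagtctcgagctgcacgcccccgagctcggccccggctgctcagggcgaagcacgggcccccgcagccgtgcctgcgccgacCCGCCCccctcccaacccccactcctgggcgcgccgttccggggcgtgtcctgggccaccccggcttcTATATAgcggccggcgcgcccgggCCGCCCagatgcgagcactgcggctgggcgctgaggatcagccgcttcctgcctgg
IGF1R: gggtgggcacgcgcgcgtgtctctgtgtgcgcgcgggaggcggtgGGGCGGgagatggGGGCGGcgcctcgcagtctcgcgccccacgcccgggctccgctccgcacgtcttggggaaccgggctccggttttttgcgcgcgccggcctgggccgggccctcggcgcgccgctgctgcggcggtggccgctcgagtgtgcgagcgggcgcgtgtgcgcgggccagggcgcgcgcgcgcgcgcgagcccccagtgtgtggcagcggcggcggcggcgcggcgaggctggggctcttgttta
IGF2R: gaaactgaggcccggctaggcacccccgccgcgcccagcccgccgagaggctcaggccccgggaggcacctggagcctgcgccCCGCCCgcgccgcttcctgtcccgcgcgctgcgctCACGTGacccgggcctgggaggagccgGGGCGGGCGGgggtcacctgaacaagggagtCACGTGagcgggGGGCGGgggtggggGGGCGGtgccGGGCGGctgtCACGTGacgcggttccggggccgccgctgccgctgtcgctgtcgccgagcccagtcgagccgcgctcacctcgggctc

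The motifs searched were the TCF/LEF core CTTTGA, read by the DNA-binding partners of beta-catenin, the E-box CACGTG, read by MYC and MAX among others, the interferon-stimulated response element written as TTTC, any 2 bases and TTTC again, the TATA box as TATAAA or TATATA, and the GC box GGGCGG, read by SP1. No match of 1 motif overlapped a match of another in these windows, although 1 pair of GC boxes in IGF2R overlap each other. IGFBP3 held a TATATA beginning 30 bases before the start and 2 GC boxes. TATATA occurs in 3.99% and TATAAA in 11.5% of the 35116 promoters of this length in the table. IGF1R held 2 GC boxes and no other match, and GC boxes occur in 45.0% of promoters. IGF2R held 6 GC boxes and 3 E-boxes, the E-boxes beginning 132, 74 and 28 bases before the start. An E-box occurs in 7.26% of promoters, and 3 or more in 33 of 35116 (0.0940%). The cut of 3 is the count seen in IGF2R itself, so this share is not a test. GC boxes numbered 3 or more in 15.8% of promoters. CTTTGA, found in 12.9% of promoters, and the interferon element, found in 3.57%, were in none of the 3 windows, which says only that these letters are not there. GC content was 74.7% for IGFBP3, 79.7% for IGF1R and 78.7% for IGF2R, against a median of 58.7%. INSR, at 78.3%, and IGFBP4, at 74.0%, whose groups overlapped, were close to these. The promoters of IGFBP2, IGFBP5 and IGFBP6 ran from 55.3% to 70.0% GC. TATA and GC boxes were not confined to the 3 windows shown. IGFBP4 held a TATAAA beginning 29 bases before its start and 2 GC boxes, and INSR held 4 GC boxes. Of the 10 genes 8 had a promoter in the table, and none of their promoters held CTTTGA or the interferon element.

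Values are log2 RMA signals, normalized by the authors, and the medians of the 6 arrays were close but not equal, at 5.88 to 5.95. A gene is said to have risen or fallen only where limma's Benjamini-Hochberg adjusted p over 18417 genes was under 0.05. By that rule 4.72% of all genes were called, 2.07% higher and 2.65% lower. CTNNB1 itself fell by 0.77 ± 0.10 (SE) log2 units, to 11.07 ± 0.13 with CTNNB1 siRNA, against 11.84 ± 0.05 with control siRNA (SD, n = 3 each; limma, adjusted p = 0.00267), which is 41.4% less signal. All 12 interferon-stimulated genes on a short list, chosen with earlier results of these data known, rose, with a median log2 change of 2.96. They were RSAD2, IFIT1, IFIT2, IFIT3, MX1, MX2, OAS1, OAS2, OASL, IFI44, IFI44L and ISG15, and their log2 changes ran from 1.53 for OAS1 to 4.28 for RSAD2, so an interferon response and the loss of CTNNB1 cannot be told apart as sources of other changes. The 8 epithelial markers averaged 11.33 to 11.36 with CTNNB1 siRNA and 11.05 to 11.15 with control siRNA, while 8 of 10 endothelial and fibroblast markers and 3 of 6 leukocyte markers, PTPRC among them, lay below every array median on all arrays. Of these markers CLDN4, TFF1 and CD68 rose, and the leukocyte markers averaged 6.44 to 6.63 with CTNNB1 siRNA and 6.22 to 6.42 with control siRNA. The leukocyte marker LYZ averaged 12.07 with CTNNB1 siRNA and 12.36 with control siRNA, and CD68 9.93 and 8.98, all above every array median. In RNA from whole cultures, fewer cells of a type and less RNA per cell cannot be told apart.

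IGFBP3 is the main IGF carrier of human serum, and it can also slow growth or favour cell death without IGF. Its signal was 8.86, 9.17 and 8.89 with CTNNB1 siRNA, against 8.18, 8.40 and 8.32 with control siRNA. The lowest CTNNB1 siRNA array lay above the highest control array, and replicate 2 was the highest array of each group. Group values were 8.98 ± 0.17 with CTNNB1 siRNA and 8.30 ± 0.11 with control siRNA (SD, n = 3 each). The rise was 0.68 ± 0.12 log2 units (SE), or 1.60-fold, with a 95% confidence interval of 1.34-fold to 1.91-fold (limma, adjusted p = 0.0102). It ranked 260th of all genes by p. Without control replicate 1, the lowest IGFBP3 array, the change was 0.62 and the adjusted p 0.0583. The call was also lost in a per-gene linear model without moderation (adjusted p = 0.117) and with all 33297 rows of the table tested (0.0693). The 12 interferon-stimulated genes averaged 9.35 to 9.54 with CTNNB1 siRNA and 6.27 to 6.45 with control siRNA, and their part in the rise of IGFBP3 was not tested.

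**Figure D1:**
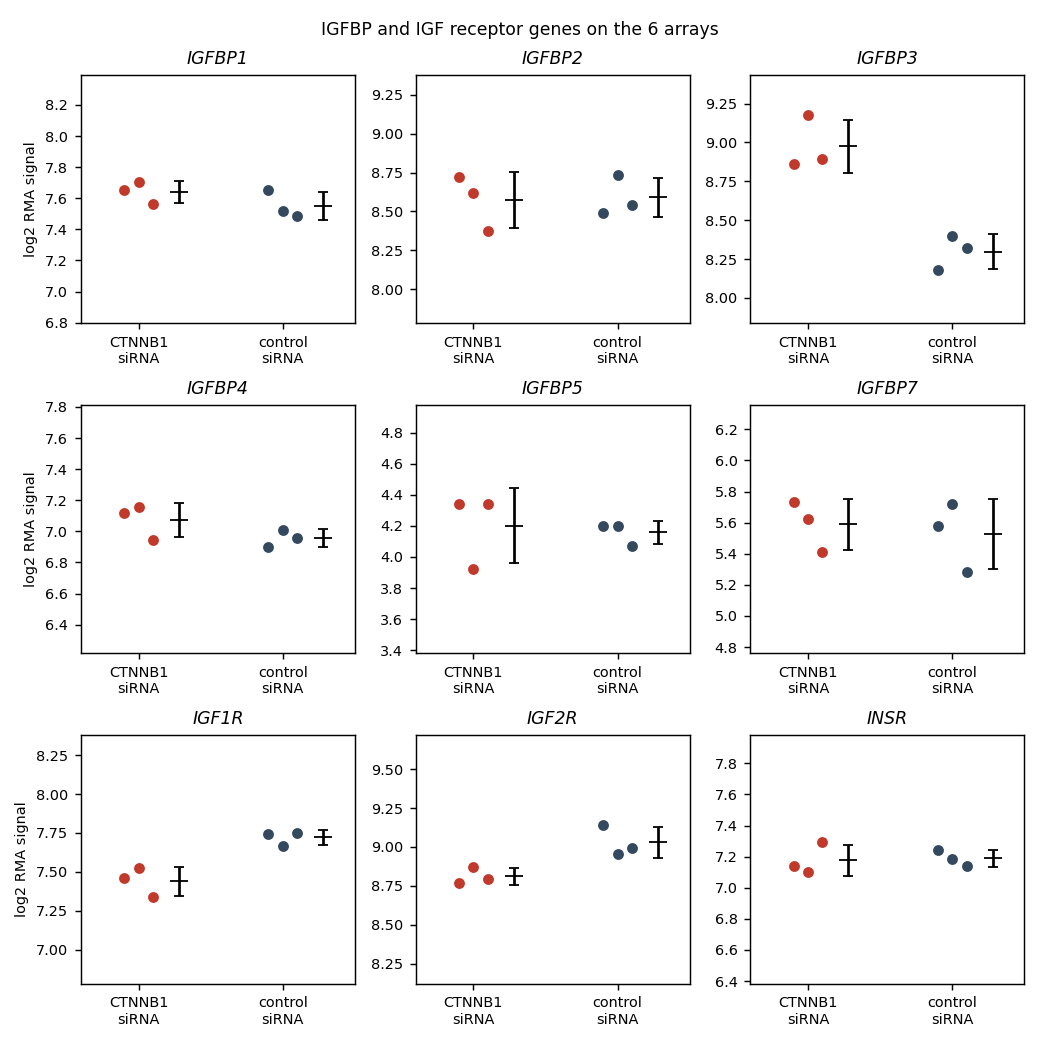
Log2 RMA signal (vertical axis, 1.6 units tall in each panel) of the 9 measured genes on the 3 CTNNB1 siRNA arrays (red) and the 3 control siRNA arrays (dark); the bars give the mean and SD. IGFBP3 sits at 8.86 to 9.17 with CTNNB1 siRNA and 8.18 to 8.40 with control siRNA, and IGF1R and IGF2R lie lower with CTNNB1 siRNA without overlap.

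IGFBP1, a binding protein that insulin holds down in liver, is the chromosome 7 neighbour of IGFBP3, with no protein-coding gene between them in RefSeq. It did not pass the test. Its signal was 7.65, 7.71 and 7.56 with CTNNB1 siRNA, against 7.65, 7.52 and 7.48 with control siRNA, and the groups overlapped. The log2 change was 0.09 ± 0.10 (SE), with a 95% confidence interval of -0.13 to 0.31 (limma, adjusted p = 0.664), while that of IGFBP3 was 0.42 to 0.94. The difference between both changes was not tested.

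IGFBP2 and IGFBP5 form the other neighbouring pair, on chromosome 2. IGFBP2, which is often abundant in tumours and binds integrins through an RGD sequence, measured 8.72, 8.62 and 8.37 with CTNNB1 siRNA, against 8.49, 8.73 and 8.54 with control siRNA. The arrays of the groups were interleaved, and the log2 change was -0.02 ± 0.12 (SE; 95% confidence interval -0.28 to 0.25). IGFBP5, which binds extracellular matrix, measured 4.34, 3.92 and 4.34 with CTNNB1 siRNA, against 4.20, 4.20 and 4.07 with control siRNA, below every array median. Its signal was not shown to be above background, and its CTNNB1 siRNA arrays spanned more than the controls, with a log2 change of 0.04 ± 0.13 (SE).

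The remaining binding proteins also overlapped between groups. IGFBP4, an inhibitor of IGF action until PAPPA cuts it, measured 7.12, 7.16 and 6.95 with CTNNB1 siRNA, against 6.90, 7.01 and 6.96 with control siRNA. Its log2 change was 0.12 ± 0.10 (SE), with an interval of -0.10 to 0.34. IGFBP7, which binds IGFs weakly and is known from vessel walls and senescent cells, measured 5.73, 5.63 and 5.41 with CTNNB1 siRNA, against 5.58, 5.72 and 5.28 with control siRNA. It too lay below every array median and was not shown to be above background. Its log2 change was 0.06 ± 0.13 (SE), with an interval of -0.23 to 0.36. The upper bounds for IGFBP1, IGFBP2, IGFBP4, IGFBP5 and IGFBP7 lay between 0.25 and 0.36 log2 units.

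Among the receptors, IGF1R, the signalling receptor for both IGFs, measured 7.46, 7.52 and 7.34 with CTNNB1 siRNA, against 7.75, 7.67 and 7.75 with control siRNA. All CTNNB1 siRNA arrays lay below all controls. The group values were 7.44 ± 0.09 with CTNNB1 siRNA and 7.72 ± 0.05 with control siRNA (SD, n = 3 each). The difference was -0.28 ± 0.10 log2 units (SE; 95% confidence interval -0.50 to -0.07; limma, adjusted p = 0.131). IGF1R was the only member with more than 1 row. The other row measured 7.34, 7.08 and 7.28 with CTNNB1 siRNA, against 7.54, 7.36 and 7.51 with control siRNA, also without overlap, and its log2 change was -0.24 ± 0.11 (SE) in the fit over every row. IGF1R passed the threshold when the dimmest 50% of genes were left out of the test (adjusted p = 0.0396), and in no other setting.

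IGF2R measured 8.77, 8.87 and 8.79 with CTNNB1 siRNA, against 9.14, 8.95 and 8.99 with control siRNA. The groups did not overlap, but the gap between the nearest arrays was small beside the spread of the controls. The log2 change was -0.22 ± 0.10 (SE; 95% confidence interval -0.44 to -0.003; limma, adjusted p = 0.239). INSR, the insulin receptor, measured 7.14, 7.10 and 7.29 with CTNNB1 siRNA, against 7.24, 7.18 and 7.14 with control siRNA. The groups overlapped, and the log2 change was -0.01 ± 0.10 (SE; 95% confidence interval -0.23 to 0.20).

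In all, 1 of the 9 measured genes was called, against 4.72% of all genes. An unadjusted p under 0.05 was found for 3 of them, against 20.3% of all genes, and the groups did not overlap for 3, against 26.0% of all genes. The median log2 change of the 9 was 0.04, and that of all genes 0.01.

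**Figure D2:**
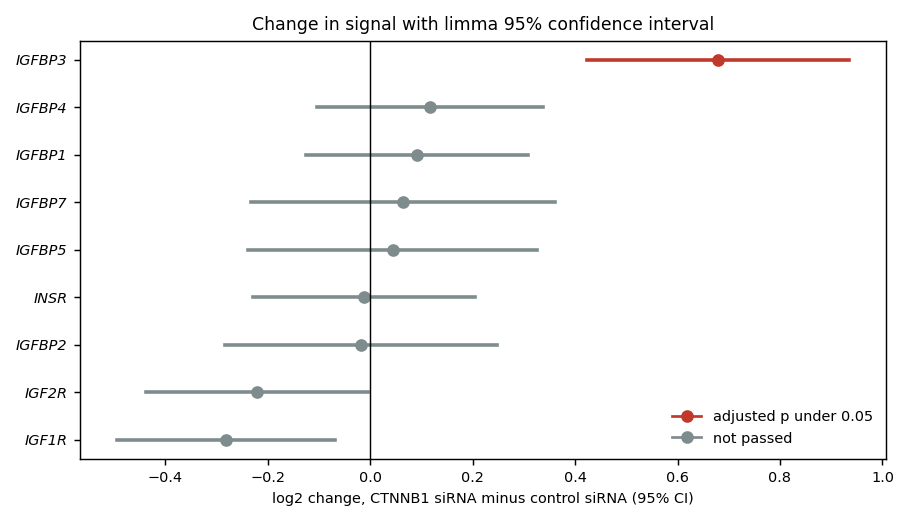
Log2 change in signal, CTNNB1 siRNA minus control siRNA, of each measured gene (point) with limma's 95% confidence interval (line), in order of the change. The interval of IGFBP3 runs from 0.42 to 0.94, those of the other binding proteins and INSR span 0, and those of IGF1R and IGF2R lie below 0 without passing the adjusted threshold.

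The genes whose 6 array values, each centred on its own mean, lay nearest to those of IGFBP3 were MUC3A, IL32 and CXCL8, with root mean square differences of 0.03, 0.05 and 0.07 log2 units over the 6 arrays. MUC3A encodes a membrane mucin with a near-identical copy, so its probes may read both. IL32 encodes a pro-inflammatory cytokine and CXCL8 a neutrophil chemokine. MUC3A measured 6.42, 6.68 and 6.46 with CTNNB1 siRNA, against 5.74, 5.90 and 5.90 with control siRNA. Log2 changes were 0.68 ± 0.11 for MUC3A, 0.64 ± 0.11 for IL32 and 0.64 ± 0.12 for CXCL8 (SE), and all 3 rose. Like IGFBP3, IL32 and CXCL8 were no longer called without control replicate 1, with adjusted p of 0.0544 and 0.0645. These 3 genes were picked for closeness to IGFBP3 on the same 6 arrays. Changes and calls like those of IGFBP3 were therefore largely fixed by the choice.

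The other genes of the IGF pathway were read from lists, and list members with no row of their own, such as IGF2 and INS, are not analysed here. Their counts are to be read against 2.07% of all genes called higher, 2.65% called lower and 20.3% with an unadjusted p under 0.05. The lists were chosen with earlier results of these data known, so this comparison is not a test of them. The ligands and the proteases that cut IGFBPs showed no call among 11 measured genes, and 1 had an unadjusted p under 0.05 in limma. IGF1 measured 3.79 to 4.12 with CTNNB1 siRNA and 3.86 to 4.11 with control siRNA, below every array median and not shown to be above background. ADAM28, a protease that cuts IGFBP3, had a log2 change of 0.28 ± 0.11 (SE; adjusted p = 0.171), and CTSD, the lysosomal protease cathepsin D, which also cuts IGFBPs and travels on IGF2R, 0.29 ± 0.14 (adjusted p = 0.263). STC2, an inhibitor of the IGFBP4 protease PAPPA, had -0.13 ± 0.09 (adjusted p = 0.457). The list's median change was 0.04.

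Proteins that share the IGFBP fold but bind IGFs weakly or not at all showed no call among 10 genes either, and 2 of the 10 had an unadjusted p under 0.05, near the 20.3% of all genes. KAZALD1 had a log2 change of 0.28 ± 0.11 (SE), and the matricellular genes CCN1 and CCN2 had 0.26 ± 0.10 and 0.22 ± 0.10, with adjusted p from 0.160 to 0.265. CCN1 measured 7.90, 7.76 and 7.75 with CTNNB1 siRNA, against 7.51, 7.54 and 7.59 with control siRNA, without overlap. The list's median was 0.15. The IGF2 mRNA-binding proteins, which bind IGF2 transcripts inside the cell and are no relatives of the IGFBPs, were not called: IGF2BP1 had -0.24 ± 0.10, IGF2BP2 0.21 ± 0.09 and IGF2BP3 -0.18 ± 0.12 (SE; adjusted p from 0.199 to 0.439). An unadjusted p under 0.05 was found for 2 of these 3.

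Cell-surface partners of the binding proteins and receptors moved in both directions, with 2 of 12 rising, 2 falling and 8 not passing, and a median change of 0.12. An unadjusted p under 0.05 was found for 6 of the 12. PLAUR, the urokinase receptor, which IGF2R can bind, measured 9.60, 9.74 and 9.53 with CTNNB1 siRNA, against 8.50, 8.65 and 8.69 with control siRNA, and rose 2.01-fold (limma, adjusted p = 0.000478). ITGA5, a subunit of the fibronectin receptor that IGFBP1 binds, measured 7.23, 7.24 and 6.96 with CTNNB1 siRNA, against 6.57, 6.39 and 6.29 with control siRNA, and rose 1.65-fold (limma, adjusted p = 0.00805). Both receptors were higher in all CTNNB1 siRNA arrays than in any control.

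LRP2, the endocytic receptor megalin, measured 7.85, 7.87 and 8.11 with CTNNB1 siRNA, against 9.26, 9.00 and 9.12 with control siRNA, and fell by 1.18 ± 0.11 log2 units (SE; adjusted p = 0.000249). TFRC, the transferrin receptor, measured 11.37, 11.42 and 11.57 with CTNNB1 siRNA, against 12.00, 11.96 and 11.99 with control siRNA, and fell by 0.53 ± 0.10 log2 units (SE; limma, adjusted p = 0.0142). The falls left no overlap between groups. The calls of PLAUR and LRP2 held with any 1 array left out, that of ITGA5 did not hold without replicate 1 of CTNNB1 siRNA (0.0533), and that of TFRC without control replicates 1 or 3 or CTNNB1 siRNA replicate 1 (up to 0.0735).

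The machinery that tags lysosomal enzymes with mannose 6-phosphate and sorts IGF2R showed no call among 13 genes, with 2 unadjusted p under 0.05 and a median of -0.09. GNPTAB, which encodes the catalytic part of the tagging enzyme, measured 7.12, 7.15 and 7.17 with CTNNB1 siRNA, against 7.48, 7.44 and 7.52 with control siRNA. The groups were well apart, and the change of -0.33 ± 0.09 log2 units (SE) had an adjusted p of 0.0656. The sorting adaptors AP1M2 and GGA3 had changes of -0.22 ± 0.09 and 0.22 ± 0.11 (adjusted p = 0.234 and 0.325).

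Among adaptors and brakes next to the receptors, 2 of 21 genes fell and 0 rose, the other 19 missing the threshold, and the median was 0.07. Of the 21, 7 had an unadjusted p under 0.05. PTPN11, the phosphatase SHP2, which helps receptors activate RAS, measured 9.16, 8.85 and 9.39 with CTNNB1 siRNA, against 9.82, 9.79 and 9.78 with control siRNA. All CTNNB1 siRNA arrays lay below the closely grouped controls. PTPN11 fell by 0.67 ± 0.13 log2 units (SE; limma, adjusted p = 0.0196). GRB10, an adaptor that restrains IGF1R and INSR, measured 6.98, 7.03 and 6.93 with CTNNB1 siRNA, against 7.74, 7.44 and 7.29 with control siRNA, and fell by 0.51 ± 0.12 (adjusted p = 0.0430). The controls of GRB10 were spread, with replicate 1 highest, and the groups did not overlap. NEDD4, a ubiquitin ligase that acts on IGF1R with GRB10, had a change of -0.42 ± 0.12 (adjusted p = 0.0695). The call of PTPN11 was lost without any 1 of the controls or CTNNB1 siRNA replicate 1 (adjusted p up to 0.0857). That of GRB10 was lost without any 1 array other than control replicate 3 (up to 0.162), and when the arrays were rescaled by cyclic loess (0.0610) or quantile-normalized again (0.0559).

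Further inside the cell, 1 of 27 genes of the PI3K, AKT, mTOR and FOXO list fell and 26 missed the threshold, the median being 0.08. Of the 27, 5 had an unadjusted p under 0.05. MTOR, the growth-controlling kinase, measured 7.76, 7.70 and 7.72 with CTNNB1 siRNA, against 8.33, 8.11 and 8.29 with control siRNA, and fell by 0.52 ± 0.10 log2 units (SE; limma, adjusted p = 0.0166). The highest CTNNB1 siRNA array lay well under the lowest control. PIK3R1, the regulatory subunit that docks PI3K to receptor substrates, had -0.41 ± 0.11 (adjusted p = 0.0645), and EIF4EBP1, the translation brake that MTOR phosphorylates, -0.29 ± 0.10 (adjusted p = 0.129). The call of MTOR was lost without control replicates 1 or 3 or CTNNB1 siRNA replicates 1 or 2 (up to 0.0945).

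Genes that FOXO factors switch on when insulin or IGF signalling is low rose in 4 of 17 cases and fell in none, with 13 not passing and a median of 0.23, against 2.07% of all genes called higher and 2.65% called lower. Of the 17, 7 had an unadjusted p under 0.05, against 20.3% of all genes. Because the list was chosen with earlier results of these data known, its counts beside these shares are not a test of the list. The 17 changes ran from -0.21 to 0.96 log2 units. IGFBP1, which insulin holds down in liver, was counted with the binding proteins and not in this list. It did not pass, with a log2 change of 0.09 (limma, adjusted p = 0.664). TXNIP, which limits glucose uptake, measured 9.60, 9.65 and 9.75 with CTNNB1 siRNA, against 8.63, 8.62 and 8.88 with control siRNA, and rose 1.94-fold (limma, adjusted p = 0.000892). PCK1, a gluconeogenic enzyme gene, measured 7.51, 7.27 and 7.51 with CTNNB1 siRNA, against 6.01, 6.75 and 6.75 with control siRNA, and rose 1.90-fold (adjusted p = 0.0209). Control replicate 1 was far below the other controls for PCK1, and no CTNNB1 siRNA array of either gene overlapped a control.

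FBXO32, a ubiquitin ligase of muscle wasting, rose 1.45-fold (adjusted p = 0.0472), and CITED2, a transcriptional co-regulator, rose 1.37-fold (adjusted p = 0.0457). TXNIP was called with any 1 array left out. PCK1 was lost without CTNNB1 siRNA replicates 1 or 3 (up to 0.103), CITED2 without any 1 array but CTNNB1 siRNA replicate 2 (up to 0.156) and under median centring (0.0512), and FBXO32 without each of the 6 arrays in turn (0.0608 to 0.128) and under all 3 other scalings (0.0569 to 0.0603). The list therefore had 1 to 3 rises with 1 array left out. These genes answer to many other signals, and neither FOXO activity nor IGF signalling was measured.

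**Figure D3:**
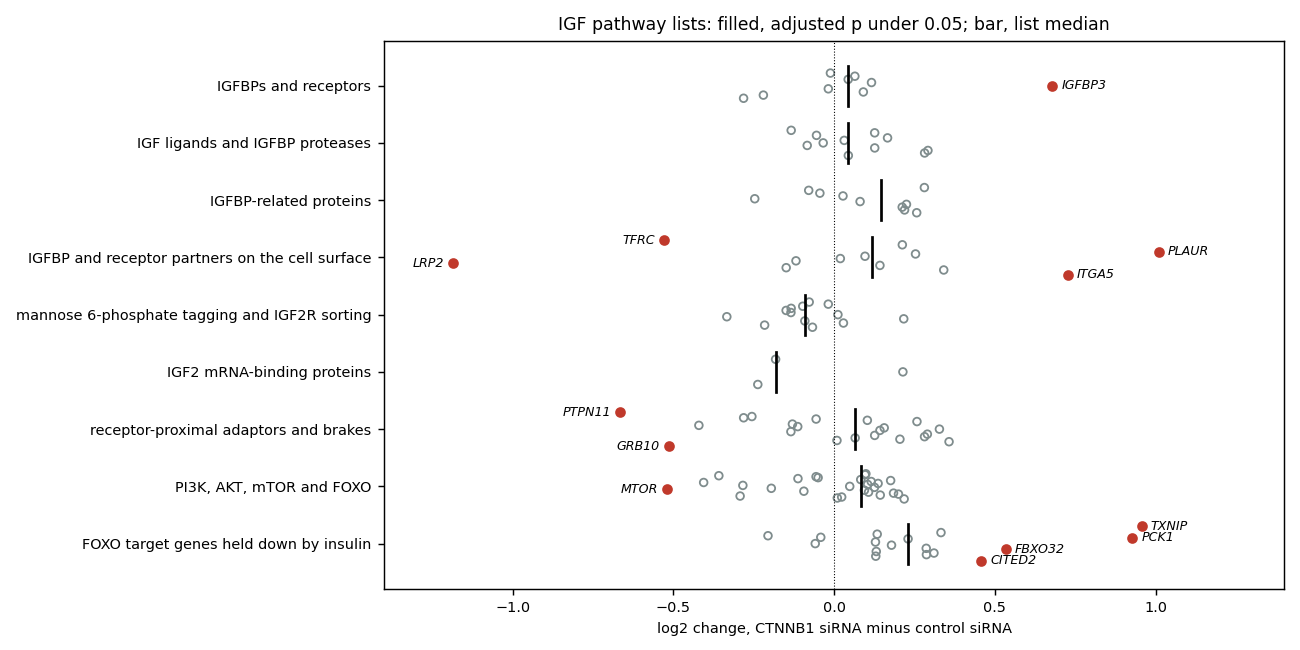
Log2 change of every measured gene of 9 lists (points), CTNNB1 siRNA minus control siRNA, with called genes filled and named and the list median as a bar. Called genes lie on both sides of 0 among the cell-surface partners, below 0 among adaptors and in the PI3K list, and above 0 among the FOXO targets.

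Settings other than the one reported kept the directions of IGFBP3, IGF1R and IGF2R. Over 17 alternatives the change of IGFBP3 lay between 0.58 and 0.75 log2 units and was called in 14. That of IGF1R lay between -0.32 and -0.23, called in 1, and that of IGF2R between -0.26 and -0.15, called in none, with adjusted p of up to 0.558.

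**Figure D4:**
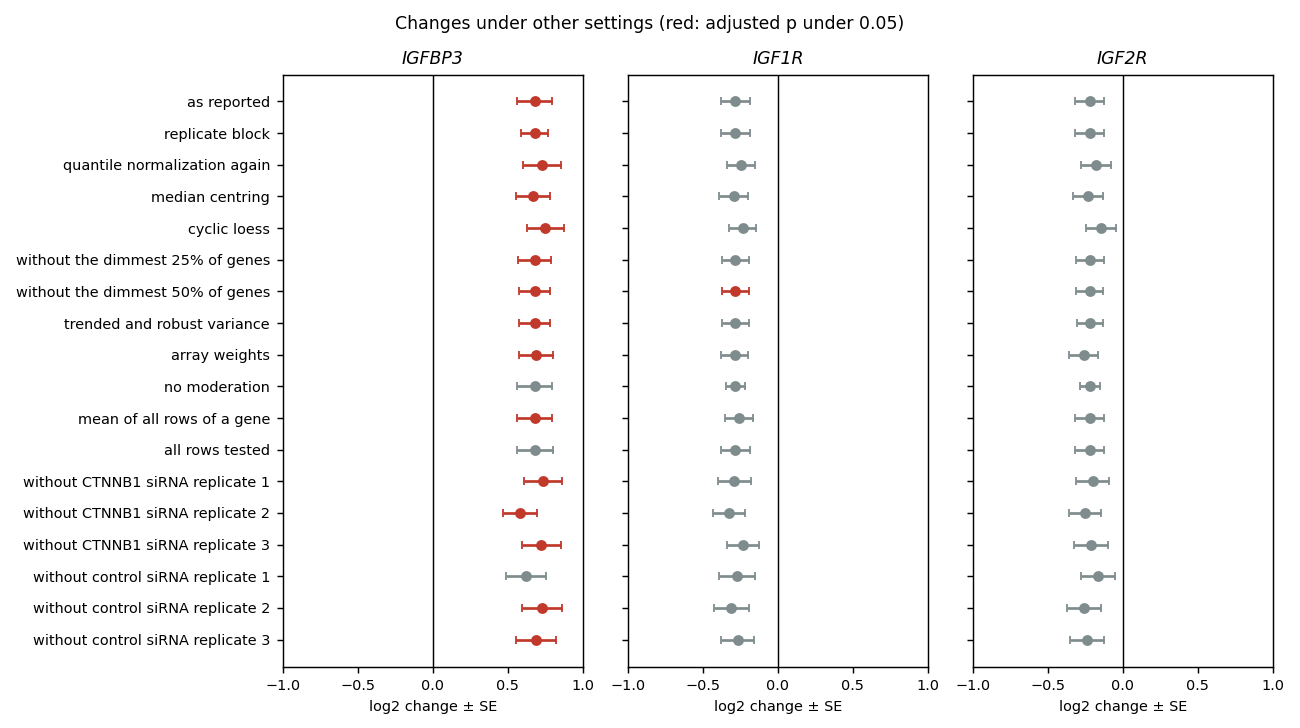
Log2 change ± SE of IGFBP3, IGF1R and IGF2R (horizontal axis) as reported and under 17 other settings (vertical axis), red where the adjusted p was under 0.05. IGFBP3 stays above 0 and IGF1R and IGF2R below 0 in each setting, while IGFBP3 misses the threshold in 3 of them.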

How the data were processed

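The authors deposited 1 log2 signal per row and array, computed by RMA with Affymetrix Expression Console 1.1 per the submitters' processing notes. That the scale is log2 follows from the range of the values. RMA usually includes a normalization between arrays, so a shift shared by most genes may not show. The deposited distributions were close but not identical, and background calls were not used here. Array number, 3 per group, limits the precision. The genome build behind the array is not given in the sources used here. Of 33297 rows, the platform annotation names 19460 by 1 symbol, 1754 by several and 12083 by none, and the brightest row per gene over the 6 arrays was kept, which left 18417 genes. RefSeq held the gene ID of 19429 rows named by 1 symbol, all with the same symbol. The test was limma 3.58.1 (R 4.3.3), two-sided, with moderated variances and Benjamini-Hochberg adjustment. No filter or further scaling was applied. On simulated data for this comparison and all 18417 genes, 50 genes were shifted at each size. The noise was independent and normal, with limma's moderated SD of each gene. Of the shifted genes, 50% were found at 0.5 log2 units, 98% at 0.7 and 100% at 1 and 2. False calls were 4.40% of all calls. Noise shared between genes was not simulated, so the rates may differ in the real data.

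The genes and lists were chosen with earlier results of these data known. Every called gene of the pathway and interferon lists is named, and up to 3 by smallest p where fewer than 3 were called. Marker lists were outside this rule. IGF1, and the markers CLDN4, TFF1, CD68, PTPRC and LYZ, were added after their values were seen. The 3 genes most like IGFBP3 follow the root mean square difference. No pair of arrays of a group was identical (SD of differences 0.203 to 0.262). The alternatives were a replicate block, 3 scalings, 2 filters, 3 variance models, 2 treatments of rows, another threshold and each array left out.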

Additional observations from a re-analysis of the deposited data

How the results depend on the processing

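The count of called genes was 1 as reported and 1 under the replicate block, the 3 other scalings and an adjusted p of 0.10. It was 2 without the dimmest 50% of genes, where IGF1R passed. It was 0 without moderation and 0 with all rows tested, and 0 to 1 with 1 array left out. CTNNB1 kept its call except without moderation, where its change of -0.77 had an adjusted p of 0.0660, and it ranged from -0.84 to -0.71 with 1 array left out. Changes near 0 turned sign without any call. IGFBP2 measured 0.0246 under a second quantile normalization, 0.0502 under cyclic loess and 0.0176 with array weights, and -0.0938 to 0.0812 with 1 array left out. INSR measured 0.00902 under a second quantile normalization, 0.0185 under cyclic loess, and -0.0687 to 0.0272 with 1 array left out. With 1 array left out IGFBP5 ranged from -0.0260 to 0.183 and IGFBP7 from -0.0576 to 0.161. No direction is given for these 4 genes.

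Deviations from the group means correlated at -0.02, 0.33 and 0.22 for same-numbered arrays 1, 2 and 3. For arrays of different numbers the correlations ran from -0.29 to 0.08. The deviations of a group's 3 arrays sum to 0, so these 2 sets of correlations are not independent of each other. The same-numbered correlation was positive for arrays 2 and 3 but not for 1, and whether samples were paired was not tested. The labels state no pairing, so the reported fit leaves out the replicate number. With it as a block IGFBP3 had an adjusted p of 0.00855, 1177 genes were called over the whole table against 870 without it, and the call of no measured IGFBP or receptor changed. Of the 11 called genes of the pathway lists, 3 were called with all rows tested and 0 without moderation. Over all genes the count of 870 became 1861 without the dimmest 50% of genes, 111 without moderation, 195 with all rows tested, 1483 without the dimmest 25% of genes, 1622 with trended and robust variances, 1668 at an adjusted p of 0.10 and 283 to 877 with 1 array left out. With all rows tested, both the number of tests and the moderated variances differed from the reported fit. The unadjusted limma p of IGFBP3 was 0.000144 as reported and 0.000788 with all rows, with SEs of 0.115 and 0.121. The part of each difference in the smaller count was not tested. Signal over background was not used here, so the dim IGFBP5 and IGFBP7 rows limit what can be said of them.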
